A study of Mus musculus with 108 samples.

Results

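Poised enhancers of the young liver that carried no detected mark at 12 months, with either diet, were examined in livers of C57BL/6 female mice. The members were chosen by the measured chromatin states themselves. A member is a 200 bp bin of chromosomes 1 to 19 in state 5 in the young group (SD 3m) that both older groups (SD 12m and CR 12m) held in state 8, and adjacent members were merged into stretches. There were 72502 such bins in 7822 stretches, out of 691200 autosomal bins in state 5 in SD 3m and 12313718 autosomal bins in all. SD 3m and SD 12m are the mice fed standard diet (SD) to 3 and 12 months of age (8 mice each). CR 12m are 9 mice of 12 months whose diet held 30% fewer calories (caloric restriction, CR), begun at 3 months. All livers were fixed in formalin and embedded in paraffin (FFPE), and chromatin was extracted by PAT-ChIP, a protocol for such tissue. The tissue was whole liver, in which fewer cells of a type and less signal per cell cannot be told apart. In the 3 groups, the TSS of all 10 hepatocyte marker genes lay in states 1 to 4.

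Monomethylation of histone H3 at lysine 4 (H3K4me1) marks enhancers, stretches of DNA that raise the transcription of genes at a distance. Acetylation of lysine 27 (H3K27ac) distinguishes enhancers in use from those that carry H3K4me1 alone, which are called poised or primed. Such marks are laid down in the cell types that use the enhancer, and a liver holds hepatocytes, the stellate cells that store vitamin A and make matrix, endothelial cells, Kupffer cells (the resident macrophages), bile duct cells and blood cells. ChromHMM, a hidden Markov model, summarised 4 marks (H3K4me3, H3K27me3, H3K27ac and H3K4me1) as 8 states per bin. State 5 is the poised enhancer and state 8 the quiescent state with none of the marks. States 1 and 2 mark active TSS and their flanks, states 3 and 4 active enhancers, state 6 repression by Polycomb (H3K27me3) and state 7 weak H3K4me3.

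The libraries of a group were merged before states were assigned, so each group has 1 segmentation, without replicates, and no value below could be tested against the spread between mice. Behind the states stand 8 H3K4me1 and 8 H3K27ac libraries in SD 3m, 6 and 7 in SD 12m, and 9 and 9 in CR 12m. The read depth of the merged libraries is unknown, and its part in the loss of a mark was not tested. Intervals after a share are Wilson 95% limits, which cover counting error only, as neighbouring bins are not independent.

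Of the 7 longest stretches 6 are shown first, each by the 200 bases at its middle, to give a view of the DNA that lost the poised state. The second longest, in Ccbe1, is not printed. The sequences are of the plus strand of GRCm38.p6 (mm10), written 5′ to 3′, and capitals mark matches, on either strand, to any of 12 short motifs of factors known in liver or blood. All 6 bins lie within a gene, 5 of them in introns, and that of Dcn also holds 58 coding bases.

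Hdac9 intron, chr12:34703601-34703800: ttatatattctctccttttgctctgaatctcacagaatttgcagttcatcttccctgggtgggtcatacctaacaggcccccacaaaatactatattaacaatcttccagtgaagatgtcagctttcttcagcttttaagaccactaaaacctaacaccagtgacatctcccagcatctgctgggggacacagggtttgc

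Klhl29 intron, chr12:5252001-5252200: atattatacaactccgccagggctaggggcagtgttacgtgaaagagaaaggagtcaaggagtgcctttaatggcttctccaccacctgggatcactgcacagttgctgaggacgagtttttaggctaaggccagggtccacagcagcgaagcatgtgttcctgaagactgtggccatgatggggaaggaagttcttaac

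Lpar1 intron, chr4:58501801-58502000: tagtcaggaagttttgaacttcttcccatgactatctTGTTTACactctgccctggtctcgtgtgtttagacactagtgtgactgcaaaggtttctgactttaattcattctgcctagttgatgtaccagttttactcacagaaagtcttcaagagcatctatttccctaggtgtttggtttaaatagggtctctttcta

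Dcn exon and intron, chr10:97510001-97510200: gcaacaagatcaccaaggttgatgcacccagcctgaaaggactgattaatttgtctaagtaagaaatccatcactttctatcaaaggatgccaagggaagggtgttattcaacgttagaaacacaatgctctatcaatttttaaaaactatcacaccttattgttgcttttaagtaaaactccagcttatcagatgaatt

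Btla intron, chr16:45228001-45228200: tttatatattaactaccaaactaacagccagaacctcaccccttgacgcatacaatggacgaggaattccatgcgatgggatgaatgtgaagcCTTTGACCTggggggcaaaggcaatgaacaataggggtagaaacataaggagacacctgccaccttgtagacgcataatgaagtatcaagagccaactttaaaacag

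Plcg2 intron, chr8:117526201-117526400: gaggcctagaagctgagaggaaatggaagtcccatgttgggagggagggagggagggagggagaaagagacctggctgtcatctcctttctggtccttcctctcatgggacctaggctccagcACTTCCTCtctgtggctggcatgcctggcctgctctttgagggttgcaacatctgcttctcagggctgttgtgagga

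Their GC content ran from 36.0% in the Dcn bin to 57.0% in the Plcg2 bin, and they held 0 to 4 CpG dinucleotides each. The capitals are TGTTTAC of the FOXA factors in Lpar1, AGGTCAAAG of nuclear receptors (DR1) in Btla and GAGGAAGT of PU.1 in Plcg2, the last pair read on the minus strand. No motif of the 12 was present in the bins of Hdac9, Klhl29 and Dcn. The motif GAGGAAGT was present in 1.49% of all member bins and in 1.20% of all autosomal bins.

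The members made up 10.5% of the state 5 bins of SD 3m (10.4 to 10.6%), which is the share the rule fixes and is given as a description. Of the rest, 15.3% of the state 5 bins stayed in state 5 in all 3 groups and 38.5% were in an active enhancer state (3 or 4) in both 12-month groups. These served as the compared sets, with 13747 and 40363 stretches. Bins of other states were also found in state 8 in both groups. These were 29.2% of the bins in state 6, 19.4% of those in state 7 and 10.1% of those in state 4, and 0.0692% of those in state 3, which carries both H3K27ac and H3K4me1. The reverse change, from state 8 to state 5 in both 12-month groups, was seen in 10303 autosomal bins. On every one of the 19 autosomes members outnumbered these, by 2.72 times on chromosome 3 to 16.8 times on chromosome 11.

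State 8 held 104711 of the young state 5 bins with SD at 12 months and 128519 with CR. The members were 69.2% of the former and 56.4% of the latter. Both comparisons share the SD 3m segmentation, so this overlap says nothing of independent agreement between diets. Just outside the rule lie the bins lost with 1 diet only. The 32209 bins in state 8 in SD 12m only were, with CR, still in state 5 (41.3%), in state 4 (34.7%) or in state 6 (21.2%). The 56017 bins in state 8 in CR 12m only were, with SD, in state 4 (51.4%), in state 5 (34.6%) or in state 6 (11.9%).

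The member share varied along the genome. It ranged from 6.98% of the state 5 bins of chromosome 7 to 14.1% of those of chromosome 16. Of 24620 windows of 100 kb, 3852 held a member, and the 471 richest held 50% or more of the member bins. These were 12.2% of the windows with a member. The same share was 10.3% for the bins that stayed poised, 16.8% for those that turned active and 17.2% for all state 5 bins of SD 3m, so state 5 itself was unevenly spread. Windows with 50 or more member bins numbered 368 and held 43.5% of all members.

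Member stretches had a median length of 1200 bp and a mean of 1854 bp, against a median of 800 bp in both compared sets. All state 5 runs of SD 3m had the same median of 1200 bp and a mean of 2356 bp. Stretches lost with SD only had a median of 800 bp, and those lost with CR only 1000 bp. The member median was above that of the stretches that stayed poised, and above that of those that turned active, on all 19 autosomes. Single bins made up 14.1% of the stretches (1101), while 571 stretches reached 5 kb and together held 29.7% of the member bins. In 87 stretches the length was 10 kb or more, with a maximum of 20.2 kb.

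A state 5 run of SD 3m could vanish whole or in part. Of 58677 autosomal runs, 6737 held at least 1 member bin and 2616 were lost whole. Of the member stretches, 33.4% were a whole run (32.4 to 34.5%), 54.0% reached 1 end of a run and 12.5% lay inside a run. The bins of these runs that were not members were often lost with 1 diet. Of 88043 such bins, 33.0% were in state 8 in CR 12m only, 16.5% in SD 12m only, 21.7% remained in state 5 throughout and 9.89% were active in both 12-month groups.

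The member share differed with the state of the 200 bp bin on each side of the run in SD 3m. Bins further out were not read for this. Runs with state 8 on both sides, with no mark beside them, lost 33.2% of their bins to state 8, and 1904 of these 6231 runs (30.6%) were lost whole. Runs with an active enhancer state on both sides lost 1.64% of their bins, and 51 of 37313 (0.137%) were lost whole, while 54.1% of their bins were active in both 12-month groups. Runs with state 8 on both sides held 15.5% of the state 5 bins and 49.1% of the members. The model smooths states along the genome, so a bin and its neighbours are not read independently, and the part of this coupling was not tested.

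**Figure D1:**
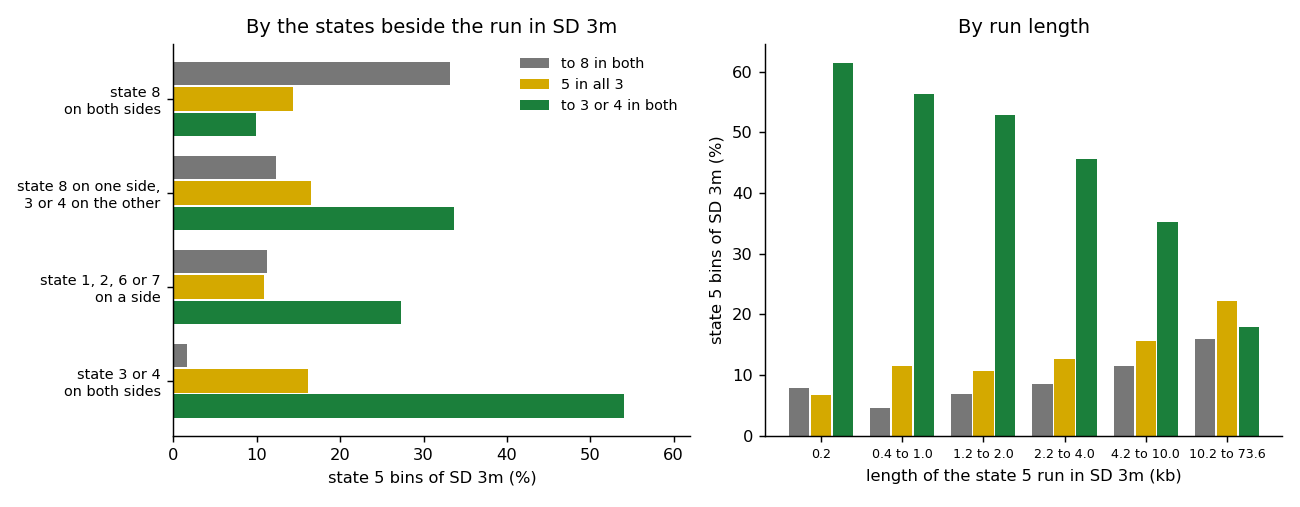
Share of the state 5 bins of SD 3m (%) that were in state 8 in both 12-month groups (grey), in state 5 in all 3 groups (yellow) or in state 3 or 4 in both 12-month groups (green), by the states on the sides of the run (left) and by run length in kb (right). Runs with a state 8 bin on both sides lost 33.2% of their bins to state 8, and runs with an active enhancer bin on both sides 1.64%.

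Run length also moved with the fate. The member share was 7.95% in runs of a single bin, 4.64% in runs of 0.4 to 1.0 kb and 16.01% in runs over 10 kb. The share that turned active went the other way, from 61.5% in runs of a single bin to 17.98% in runs over 10 kb, and the share that stayed poised was 6.67% and 22.3% in the same classes. Bins of the longest runs were thus more often members, and more often still poised, than bins of any shorter class.

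The distance to other enhancers followed the same order. In SD 3m the median member stretch lay 9400 bp from the nearest bin in state 3 or 4, and 9.35% touched one. Of the stretches that stayed poised, 55.5% touched such a bin, and of those that turned active, 85.6%. At 12 months the distance to remaining enhancers is given as a description, since the choice of members shapes it. Of the stretches, 54.0% stopped inside their run of state 5 on a side and 12.5% on both sides. The bin beyond such an end, in state 5 in SD 3m but no member, kept a mark with SD, CR or both. An enhancer state touched 64.6% of the stretches with SD, CR or both. Much of this contact thus follows from the rule. The nearest bin in state 3, 4 or 5 was adjacent to 45.2% of the stretches with SD and to 31.0% with CR. It was over 10 kb away from 25.3% of them with SD and from 33.5% with CR. In 19.7% of the stretches no enhancer state lay within 10 kb in either 12-month group.

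The flanks of the stretches include other members, since members lie near each other. At 5 kb before and after the middle of a stretch, state 5 held 29.8% and 30.2% of the bins at 3 months, against 10.7% and 11.01% at 12 months with SD and 10.4% on both sides with CR. State 8 at these distances held 51.9% and 51.6% at 3 months, 70.1% and 69.3% at 12 months with SD, and 76.0% and 75.6% with CR. The active enhancer states 3 or 4 held 8.68% and 9.05% at 3 months, 13.6% and 13.7% with SD and 9.35% and 9.17% with CR. Members themselves made up 9.86% and 10.1% of the bins at these distances, and their states are fixed by the rule. Without them, state 5 held 22.1% and 22.3% at 3 months, 11.9% and 12.2% with SD and 11.5% and 11.6% with CR. These are shares of all flanking bins in each group, and they include bins that gained state 5. Of all young state 5 bins of the autosomes, 30.3% were still in state 5 with SD and 25.2% with CR. Loss of state 5 was thus common over the autosomes. That measure was not taken for the flanks, so it was not compared whether they lost more. Flanking bins in the run of a member are also not independent of it. Polycomb (state 6) was found in fewer of all these flanking bins at 12 months than at 3 months. It held 7.62% and 6.95% at 3 months, 3.80% and 4.00% with SD and 3.34% and 3.84% with CR. The compared sets were also further from Polycomb at 12 months with SD. The median distance to the nearest state 6 bin rose from 43600 to 59200 bp for members. For stretches that stayed poised it rose from 81800 to 134200 bp, and for those that turned active from 75400 to 143200 bp. A greater distance to state 6 was thus not particular to members.

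**Figure D2:**
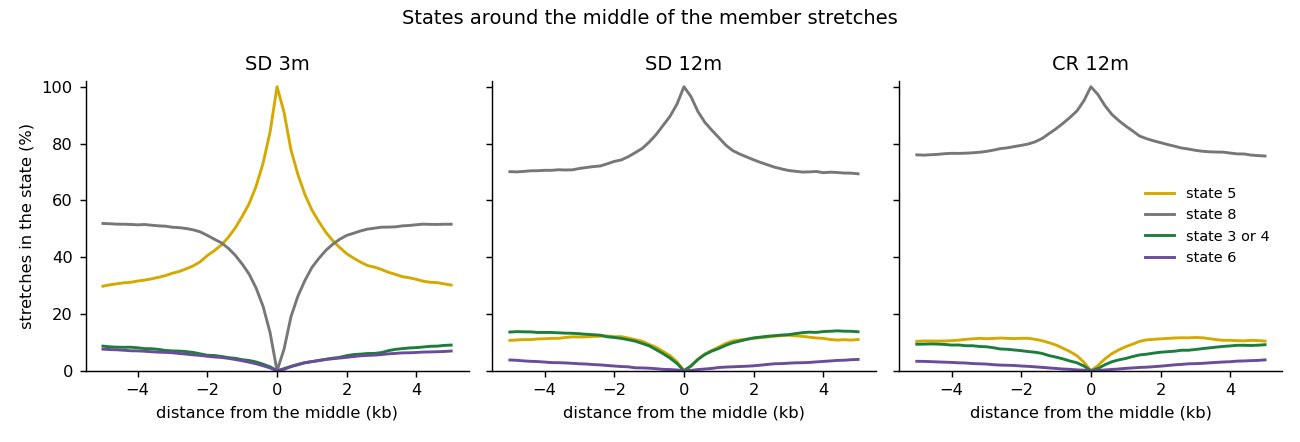
Share of the 7822 member stretches (%) in state 5, state 8, state 3 or 4 and state 6, by distance in kb from the middle of the stretch, in SD 3m, SD 12m and CR 12m. The values at 0 are fixed by the choice of members, as are those of the other members among the flanking bins (9.86% and 10.1% of the bins at 5 kb). At 5 kb state 5 stood at 29.8% and 30.2% in SD 3m and between 10.4% and 11.01% in the 12-month groups.

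Members lay far from TSS and more often between genes than the poised enhancers that persisted. The middle of a stretch was within 2 kb of a TSS in 4.22% of the stretches (3.80 to 4.69%), in an exon in 2.25%, in an intron in 55.2% (54.1 to 56.3%) and between genes in 38.3% (37.3 to 39.4%). Of the stretches that stayed poised, 77.8% were intronic and 17.4% intergenic, and of those that turned active, 54.4% and 32.9%. The intergenic share was above that of the persisting stretches on all 19 autosomes and above that of the activated stretches on 17. The median distance to the nearest TSS was 36552 bp (quartiles 14129 and 83088 bp), compared to 32231 bp for those that stayed poised and 17180 bp for those that turned active, and it exceeded the former on 15 and the latter on all 19 autosomes. Of the stretches lost with SD only, 34.5% were intergenic, of those lost with CR only 40.8%, and of all state 5 runs 32.1%. The intergenic share was thus not particular to the members. The median TSS distances of these sets were 30937, 29308 and 21025 bp in the same order.

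The DNA of the members was poor in repeats. Bases that the reference marks as repeats made up 22.5% of the member bins, 28.8% of those that stayed poised, 25.1% of those that turned active and 33.5% of all autosomal bins, and the member value was the lower on all 19 autosomes against the persisting bins. The bins lost with SD only (21.98%) and with CR only (23.7%) were alike poor in repeats. GC content was 43.5%, between 42.7% for those that stayed poised and 47.8% for those that turned active, with 41.9% for all autosomal bins. CpG dinucleotides numbered 1.84 per bin, compared to 1.76, 2.52 and 1.69 in the same order.

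The 12 motifs were searched as exact letters on both strands, with matches to several motifs allowed to overlap. Several differed between the members and 1 or both of the compared sets. The largest ratio to the persisting bins was that of GAGGAAGT of PU.1, a factor of myeloid and B cells, in 1.49% of the member bins (1.41 to 1.59%) and 1.13% of the bins that stayed poised (1.06 to 1.19%). It was as frequent in the bins lost with SD only (1.47%) or CR only (1.54%), and was in 1.43% of the bins that turned active and 1.38% of all state 5 bins, so the motif did not set the members apart. TGANTCA of AP-1, the factor formed by Fos and Jun proteins, was in 6.55% of the members. It was in 5.77% of the persisting, 5.74% of the activated and 5.96% of all autosomal bins. Of the bins lost with SD only 6.27% held it, and of those lost with CR only 6.55%. AP-1 thus did not set the members apart either. TGTTTAC of the FOXA factors, which open chromatin in liver, was in 3.18% of the members, 3.20% of the persisting and 2.31% of the activated bins. GTTAATNAT of HNF1, a hepatocyte factor, was in 0.669%, 0.730% and 0.360%, and CCACNAGGG of CTCF in 0.615%, 0.658% and 0.874%. Over all autosomal bins these 3 motifs were in 2.98%, 0.703% and 0.562%. Members were thus close to the persisting bins and to all autosomal bins in these 3 motifs, and the activated bins lay further away. A match is a description of letters and not a bound site.

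The TSS nearest to a member stretch belonged to 3352 of 24963 autosomal genes (13.4%), of which 2609 were protein-coding and 574 lncRNA genes. The state at these TSS was not used to choose the members, except where the TSS itself lay in a member bin. In SD 3m, 26.5% of these genes had their TSS in state 8 (25.03 to 28.0%), compared to 12.6% of the genes nearest to a persisting stretch and 8.46% of those nearest to a stretch that turned active, while all autosomal genes had 28.4%. States 1 or 2 were found at 35.0% of these TSS (33.4 to 36.6%), at 52.1% of those nearest to a persisting stretch and at 57.3% of those nearest to an activated one. Genes near members were thus more often without marks at 3 months than genes near the compared sets, although a gene can be in more than 1 of these sets.

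At 12 months, state 8 was found at 28.0% of the TSS near members with SD and at 34.8% with CR. Of these genes, 112 had their TSS in a member bin, where the rule fixes the change. Without them, state 8 was found at 27.4% of the TSS at 3 months, 25.6% with SD and 32.6% with CR, so with SD the share was lower at 12 months, not higher. Over all autosomal genes the share went from 28.4% to 22.3% and 26.5%. For genes near persisting stretches it was 13.2% and 15.3%. Without the same 112 genes, state 5 at the TSS near members went from 11.9% to 4.81% and 4.17%, and state 4 from 6.39% to 17.9% and 18.6%. State 4, which carries H3K27ac, was thus more frequent at these TSS at 12 months, and over all autosomal genes it went from 5.53% to 13.3% with both diets.

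**Figure D3:**
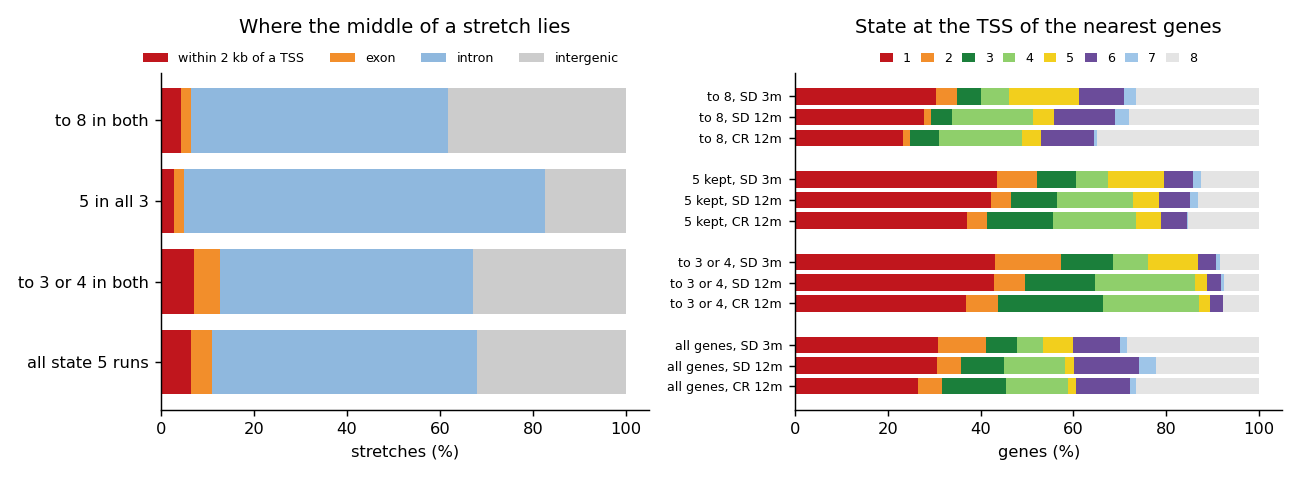
Left, position of the middle of a stretch (% of stretches) for members (to 8 in both), stretches in state 5 in all 3 groups, stretches that turned to state 3 or 4, and all state 5 runs of SD 3m. Right, state (1 to 8) at the TSS of the nearest genes (% of genes) in each group: in SD 3m, 26.5% of the genes near members were in state 8, compared to 12.6% and 8.46% near the compared sets and 28.4% of all autosomal genes.

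Of 1628 autosomal TSS in state 5 in SD 3m, 115 lay in a member bin (7.06%), below the 10.5% of all state 5 bins, and 783 (48.1%) were in state 3 or 4 in both 12-month groups. Of the 115, 74 were of protein-coding genes, among them Nav1, Adcy2, Synm, Cdh17, Tinag and Kcng4. How many of the 115, or of the 1628, belong to genes of immune cells was not counted. The genes named here were chosen after their values were seen, so their mix describes no theme of the 115. They include Btla and Icos, receptors that restrain and stimulate lymphocytes, Ccr9, a chemokine receptor of lymphocytes homing to the gut, Cd69, an early activation antigen, Dock2, an activator of Rac in blood cells, and Il6, a cytokine. Further ones are Il1r2, the decoy receptor of interleukin 1, Nlrc4, an inflammasome sensor, Ms4a7, a membrane protein of macrophages, and Lyz1, a lysozyme. Outside the immune system, Col6a1, a chain of type VI collagen, Sgk1, a kinase induced by serum and glucocorticoids, and Mpdz, a scaffold of cell junctions, were also among them. The stretch at the TSS of Icos spanned 8.20 kb, that of Nlrc4 7.80 kb, that of Ms4a7 9.80 kb and that of Il6 3.20 kb. Those at Icos, Nlrc4 and Ms4a7 were each a whole run of state 5.

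Promoters are printed for 3 of these genes, since the TSS itself lost the poised state there. The sequences are those of RefSeq in GRCm38.p6, from 250 bases before the TSS to 50 after it, all on the plus strand, with the motif matches in capitals.

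Btla promoter, chr16:45224087-45224386: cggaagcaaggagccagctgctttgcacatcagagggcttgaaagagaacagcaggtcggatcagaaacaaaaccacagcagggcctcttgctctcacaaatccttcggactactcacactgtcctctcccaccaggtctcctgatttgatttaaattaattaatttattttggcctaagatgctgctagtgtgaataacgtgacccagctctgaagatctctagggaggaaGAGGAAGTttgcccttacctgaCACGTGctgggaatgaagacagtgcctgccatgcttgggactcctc

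Il6 promoter, chr5:30012864-30013163: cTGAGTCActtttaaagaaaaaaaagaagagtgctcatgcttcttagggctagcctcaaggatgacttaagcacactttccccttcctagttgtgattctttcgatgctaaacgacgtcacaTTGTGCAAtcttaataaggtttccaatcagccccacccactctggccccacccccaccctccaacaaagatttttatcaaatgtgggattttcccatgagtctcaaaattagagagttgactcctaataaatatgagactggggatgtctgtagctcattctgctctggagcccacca

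Ccr9 promoter, chr9:123766961-123767260: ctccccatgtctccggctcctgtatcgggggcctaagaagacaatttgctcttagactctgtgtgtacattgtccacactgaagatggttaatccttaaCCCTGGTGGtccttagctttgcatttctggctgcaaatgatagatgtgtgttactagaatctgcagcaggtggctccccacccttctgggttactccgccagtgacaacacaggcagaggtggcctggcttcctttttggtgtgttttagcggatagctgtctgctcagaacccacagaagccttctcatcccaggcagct

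The matches are GAGGAAGT of PU.1 and the E-box CACGTG in Btla, TGANTCA of AP-1 and TTGNGCAA of C/EBP in Il6, and CCACNAGGG of CTCF, on the minus strand, in Ccr9. Of 18233 promoters of the same length, GAGGAAGT was in 3.34%, CACGTG in 7.99%, TGANTCA in 7.49%, TTGNGCAA in 2.79% and CCACNAGGG in 1.41%. The 80 member TSS with a promoter in the table were poorer in G and C than others, with a GC content of 51.2% ± 9.96 (SD over promoters, n = 80), against 55.9% ± 11.5 over the 18233. Their median number of CpG was 4.50, and 41.2% held 3 or fewer, compared to a median of 13 and 24.5% over all. The 56 promoters that stayed in state 5 had a median of 11, and the 525 that turned to state 3 or 4 a median of 8.

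The hairpins of 11 miRNA genes began in a member bin. How many miRNA genes began in state 5 in the young group was not counted, so this count has no background. By the nearest TSS, miRNA genes were 3.61% of the genes near members and 4.55% of all autosomal genes. A pair of the 11, Mir99a and Mirlet7c-1, chosen after their values were seen, lay in 1 member stretch of 4.60 kb, chr16:77597201-77601800, inside a longer run of state 5. Their guide strands are shown, from RefSeq, with the seed (bases 2 to 8) in capitals.

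mmu-miR-99a-5p: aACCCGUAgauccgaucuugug

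mmu-let-7c-5p: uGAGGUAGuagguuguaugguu

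The seeds differ between the pair. Let-7 miRNAs repress genes of growth and the fetal state, and miR-99a is made with let-7c from the same cluster. The hairpin start is not the TSS of its primary transcript, so nothing of the promoter is described here.

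The 12 longest stretches are described by gene. The longest, of 20.2 kb, was at chr12:34693601-34713800 in an intron of Hdac9, a histone deacetylase, 213 kb from its TSS. It was 1 end of a run of 43.8 kb, bordered there by state 1, and it held no exon. In the 80 kb around its middle, state 5 covered 67.5% at 3 months, and 13.2% with SD and 1.75% with CR at 12 months. State 6 covered 0.25%, 0% and 26.0% in the same order.

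In Lpar1, a receptor of lysophosphatidic acid, the stretch of 19 kb (chr4:58492401-58511400) lay in the body of the gene and included 45 coding bases. State 5 covered 77.5% of the surrounding 80 kb in SD 3m and none of it at 12 months, when state 7 covered 41.0% with SD and 24.8% with CR. The TSS of Lpar1 went from state 7 to state 8 with both diets.

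In Dcn, which encodes decorin, a proteoglycan of connective tissue, the stretch of 18.6 kb (chr10:97500801-97519400) covered the 3′ part of the gene with 756 coding bases. The TSS of Dcn itself went from state 1 to state 6 with both diets. The 80 kb around it held state 5 in 53.8% of the bins at 3 months, and in 6.00% and 0% at 12 months with SD and CR.

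The next 3 by length among those outside chromosome 18 lay at Btla, Plcg2 and Irf4. The stretch of 17.6 kb at Btla (chr16:45219401-45237000) was a whole run with state 8 on both sides and covered the TSS, which lay 3863 bp from its middle. That in Plcg2 (17.2 kb, chr8:117517801-117535000), a phospholipase of B cell receptor signalling, was a whole intronic run, and the TSS went from state 5 to state 8 with SD and to state 6 with CR. The stretch of 17.0 kb before Irf4 (chr13:30713001-30730000), a transcription factor of lymphocytes, lay between genes 27.7 kb from the TSS, which went from state 5 to state 6 in both 12-month groups. Part of the state 5 around it remained at 12 months, with 64.8% of the 80 kb at 3 months, 17.0% with SD and 14.2% with CR.

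Whole runs were lost in introns of Ccbe1 (19.4 kb), which is needed for the growth of lymph vessels, Klhl29 (19.2 kb, chr12:5242601-5261800) and Dst (15.8 kb, chr1:34019001-34034800), a linker of the cytoskeleton. In the 80 kb of Klhl29, state 5 fell from 41.8% to 0% and state 8 covered 100% in both 12-month groups, with the nearest enhancer state 285200 bp away with SD and 302000 bp away with CR. A stretch of 15.8 kb between genes on chromosome 15 (chr15:40353801-40369600), 166 kb from the lncRNA gene Gm16294, was the only marked segment in its 80 kb in SD 3m. The remaining pair were a stretch of 15.6 kb at Olfr433 and Ifi205 (chr1:174031601-174047200) and a whole run of 15.2 kb in Ptgfrn (chr3:101066401-101081600), with 1164 coding bases.

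**Figure D4:**
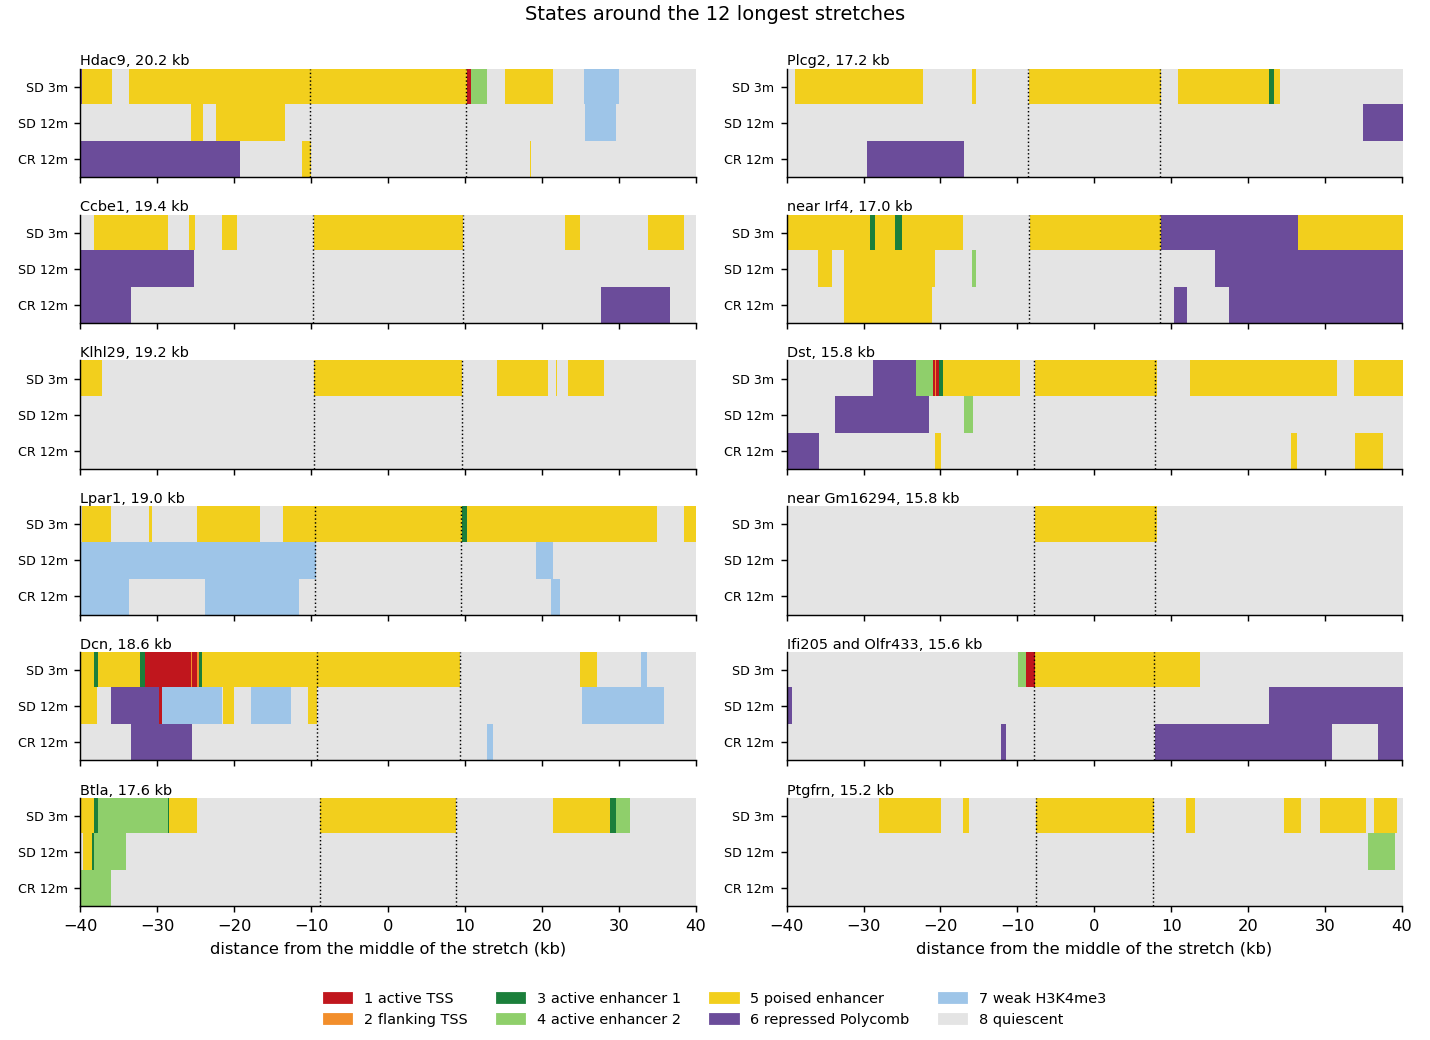
States of the bins within 40 kb of the middle of the 12 longest member stretches, in rows for SD 3m, SD 12m and CR 12m; dotted lines mark the ends of the stretch, and titles give the overlapping or nearest gene and the length. In SD 3m, 4 of the 12 stretches were an end of a longer run of state 5 (yellow) and 8 were whole runs, bordered by state 8 (grey) except for state 6 on a side near Irf4. In Lpar1 state 5 went from 77.5% of the 80 kb to 0%.

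Counting member bins per nearest TSS brought out large genes. The 631 bins (126.2 kb) nearest to the TSS of the lncRNA gene Gm17396 all lay in the body of Rbms3, an RNA-binding protein, and were 33.4% of the state 5 bins assigned there. Reln followed with 460 bins (92.0 kb) in 31 stretches, all inside the gene. Reln encodes reelin, a secreted glycoprotein that stellate cells make in the liver, and the members were 85.8% of its 536 state 5 bins, although its TSS was in state 8 in all 3 groups. Zfpm2, a cofactor of GATA factors, had 417 bins (84.6% of its state 5 bins), and Lpar1 245 in stretches assigned whole to it. Assigned bin by bin, members were 85.3% of the state 5 bins of Lpar1.

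Rftn1, which encodes raftlin of lipid rafts, had 377 member bins, 64.9% of its state 5 bins. Hivep3, a zinc finger protein, had 323 (59.3%), with its TSS in state 5 in all groups. Tns3, a protein of focal adhesions, had 279 (46.0%), none of them inside a protein-coding gene, and its TSS stayed in state 1. The bins nearest to Mir701 (361) were all in the body of Ttc28, those nearest to Plxna4os1 (289) in Plxna4, a receptor of semaphorins, those nearest to B230216N24Rik (269) in Pam, an enzyme that amidates peptides, and those nearest to Mir6896 (250) in Dst. The rest of the 15 genes with most member bins were 1700025G04Rik (349), Hdac9 (274), Gcnt1 (245), an enzyme of O-glycan branching, and Gask1b (238).

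Among windows of 100 kb, the richest lay in Zfpm2 (chr15:40700001-40800000), with 246 member bins in 8 stretches. State 5 covered 57.0% of it at 3 months, 6.40% with SD and 1.40% with CR at 12 months. The windows in Dst (233 bins), Rftn1 (226), Lpar1, Reln and Ttc28 (202 each) and Ccbe1 (199) followed. The eighth, with 197 bins (chr19:11300001-11400000), held Ms4a14, Ms4a7 and Ms4a4a of the MS4A family of membrane proteins. State 8 covered 40.2% of that window at 3 months, 80.2% with SD and 100% with CR at 12 months. Of these 8 windows, that in Rftn1 held most state 5 with SD (33.0%, against 78.0% at 3 months) and that in Ttc28 with CR (22.6%, against 65.0%).

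Of the genes near members, 1707 (50.9%) had only 1 member stretch, and 369 had 5 or more. Of 10414 genes with at least 10 state 5 bins in SD 3m, 561 (5.39%) lost 50% or more of them to the members and 117 (1.12%) lost all.

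Lists of genes were compared by the share of the state 5 bins nearest to their TSS that were members. Over all state 5 bins this background was 10.5%. Members were unevenly spread over genes: of all 14855 genes with state 5 bins, 77.2% had none lost, and the median share was 0%. A list of 10 or 20 genes can thus lie far from 10.5% through few genes. Genes of hepatocyte function lay below the 10.5%. The 10 hepatocyte markers had 781 state 5 bins and 0 members, with a Wilson upper limit of 0.489%, while 43.5% of the bins turned active. For plasma proteins of hepatocytes the share was 0.902% (6 of 665 bins, all near Fgg, a chain of fibrinogen), for lipid and bile acid metabolism 0.213% (1 of 470, near Lpin1, a phosphatidate phosphatase), and for glucose and amino acid metabolism 0.366% (4 of 1093, near Slc2a2, the glucose transporter of hepatocytes). Hepatocyte transcription factors had 2.27% (20 of 880), with members near Foxa2 (14 bins), a pioneer factor, and Nr5a2 (6 bins), a nuclear receptor of bile acid synthesis. By the nearest protein-coding TSS, the shares were 0.588% for the markers, 1.40% for plasma proteins, 0.175% for lipid and bile acid metabolism and 1.51% for glucose and amino acid metabolism. That of the transcription factors was 6.13%, so its distance from the background depends on the assignment. In SD 3m, 20 of 20 TSS of the plasma proteins, of the transcription factors and of the lipid genes and 17 of 19 of the glucose list lay in states 1 to 4.

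Markers of stellate cells had the highest share, 46.7% (662 of 1419 bins; 44.1 to 49.3%). It rested on few genes: without Reln the share was 22.9%, and without Reln and Dcn it was 9.21%, below the background. Of the 10 genes 4 had a member stretch, and the median over genes was 0%, the same as over all genes with state 5 bins. Dcn had 141 member bins, 63.8% of its state 5 bins. Pdgfrb, the receptor of platelet-derived growth factor on stellate cells and pericytes, had 56 (32.4%), and Lrat, which esterifies vitamin A for storage, had 5 (12.2%). Of the 10 TSS, states 1 to 4 held 1 at 3 months, and 2 with SD and 1 with CR at 12 months. State 6 was found at 1, 4 and 5 of them in the same order.

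Genes of blood cell formation came next with 18.5% (295 of 1593 bins), 12.4% without Runx1 and 7.04% without Runx1 and Meis1, below the background. Members lay near 5 of the 19 genes, and the median over genes was 0%, again the same as over all genes with state 5 bins. None of the 105 state 5 bins of Lmo2, 65 of Tal1 and 64 of Gata2, regulators of blood stem cells named here after their values were seen, was a member. Runx1, a factor needed for the first blood stem cells, had 142 member bins in 10 stretches, 39.7% of its state 5 bins, and its TSS went from state 4 to state 6 in both 12-month groups. Meis1, a homeobox factor of stem cells, had 101 (20.4%), Ikzf1, the lymphoid factor Ikaros, 25 (9.36%) and Cd34, a surface protein of progenitors and endothelium, 15 (14.2%).

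For Kupffer cell markers the share was 11.4% (34 of 298 bins), from Adgre1 (23 bins), which encodes the macrophage antigen F4/80, and Cd163 (11 bins), a scavenger receptor for haemoglobin, and 6.08% without Adgre1. Those were its only genes with members. Lymphocyte markers had 9.33% (32 of 343), with 16 of 16 state 5 bins lost at Ms4a1, which encodes CD20 of B cells, 15 at Ptprc, the leukocyte antigen CD45, and 1 at Cd8a. Without Ms4a1 the share was 4.89%, but with the nearest protein-coding TSS in place of any TSS it was 30.2%. Sinusoidal endothelial markers had 6.27% (60 of 957), 43 of them near Kdr, a receptor of vascular endothelial growth factor, 15 near Tek, a receptor of angiopoietins, and 2 near Flt4, a receptor of lymphatic growth factors, and 3.35% without Kdr. Cholangiocyte markers had 0.335% (2 of 597, both near Krt19, a keratin of bile ducts).

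**Figure D5:**
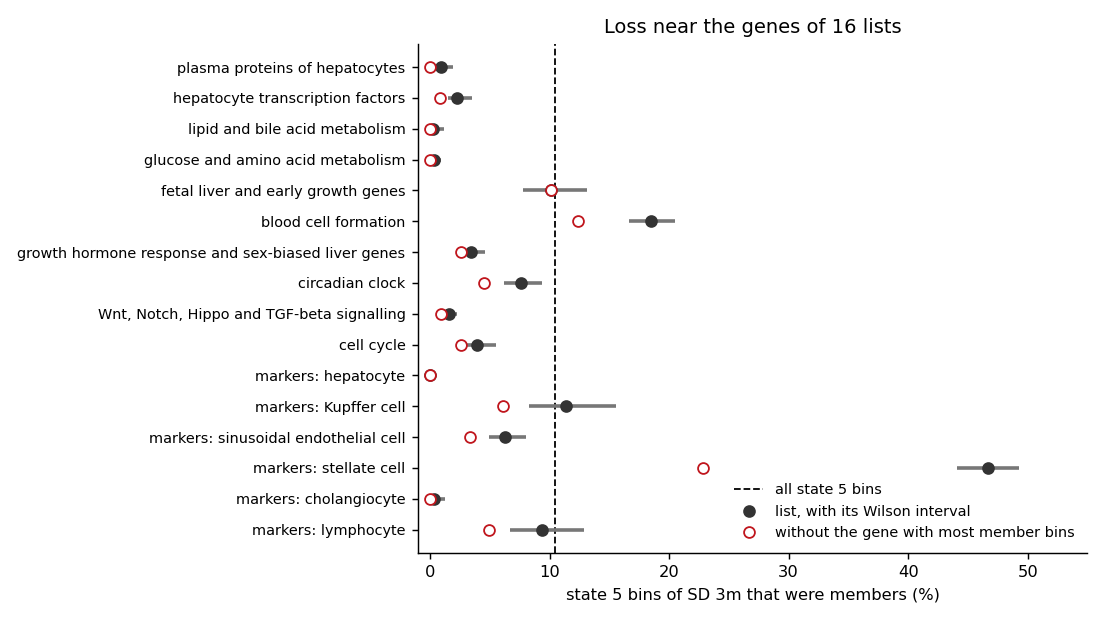
Share of the state 5 bins of SD 3m nearest to the genes of 16 lists that were members (%), with Wilson 95% limits (filled circles and bars), the share without the gene that has most member bins (open circles) and the share over all state 5 bins (dashed line, 10.5%). Stellate cell markers stood at 46.7%, at 22.9% without Reln and, not drawn, at 9.21% without Reln and Dcn, and hepatocyte markers at 0%.

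The lists of regulation lay near or below the background. Fetal liver and early growth genes had 10.1% (50 of 494), or 6.67% by the nearest protein-coding TSS, with members near 7 of 19 genes, among them Igf2bp2 (16 bins), an RNA-binding protein, Mycn (14), a factor of growth, Sox11 (8 of its 8 state 5 bins), a developmental factor, and Grb10 (7), an imprinted inhibitor of insulin signalling. Circadian clock genes had 7.63% (81 of 1061), or 4.55% without Rora (39 bins), a nuclear receptor of the clock, followed by Npas2 (26), Nr1d2 (15) and Clock (1). Cell cycle genes had 3.92% (31 of 791), with Mki67 (12), a marker of dividing cells, the kinase genes Cdk1 (10) and Plk1 (6), and Ccne1 (2), or 2.62% without Mki67. Genes of growth hormone response and sex bias had 3.44% (41 of 1192), with Esr1 (18), the oestrogen receptor, Ghr (14), the growth hormone receptor, and Hsd3b5 (9), a steroid enzyme of the male liver. Genes of Wnt, Notch, Hippo and TGF-beta signalling had 1.57% (27 of 1723), with Tgfbr1 (13), Axin2 (6), Jag1 (4) and Tgfbr2 (4), and 0.884% without Tgfbr1. By the nearest protein-coding TSS that last share was 12.3%, so the value of this list depends on how bins are assigned to genes.

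By the count of genes with a member stretch, against 13.4% of all autosomal genes, 0 of 10 hepatocyte markers, 4 of 10 stellate cell, 3 of 10 sinusoidal endothelial, 3 of 10 lymphocyte, 2 of 8 Kupffer cell and 1 of 10 cholangiocyte markers had one. Only 59.5% of all autosomal genes were nearest to a state 5 bin of SD 3m, and the others had none to lose. Among the genes with state 5 bins, 77.2% had none lost, so 13.4% is a low background for these lists. State 5 bins lay near 10 of 10 hepatocyte, 9 of 10 stellate cell and 9 of 10 sinusoidal endothelial markers. They lay near 4 of 10 lymphocyte, 5 of 8 Kupffer cell and 10 of 10 cholangiocyte markers. The part of a change in the makeup of cells in these values was not tested.

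The longest stretches lost with 1 diet only are given for comparison. With SD only, these were between genes near Rbpj, the factor of Notch signalling (15.6 kb, chr5:53529001-53544600), near Eps8 (14.0 kb, chr6:137684401-137698400) and near Dad1 (13.4 kb, chr14:54185801-54199200), and with CR all bins of the 3 were in state 6. With CR only, the longest was in Ikzf1 (26.0 kb, chr11:11692201-11718200), longer than any member stretch, and 95.4% of its bins were still in state 5 in SD 12m. A stretch of 17.8 kb in Dock10 (chr1:80618001-80635800) was in state 5 throughout in SD 12m, and one of 17.4 kb at Rasgrp1 (chr2:117341201-117358600), an activator of Ras in T cells, was in states 6 (48.3%), 4 (31.0%) and 5 (20.7%).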

How the data were processed

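ChIP-seq of H3K4me3, H3K27me3, H3K27ac and H3K4me1 was made by the study from 31 FFPE livers (108 libraries). The authors aligned reads to mm10 with BWA 0.6.2-r126 (version per the submitters' processing notes), removed poorly mapped and duplicate reads with SAMtools 0.1.18, merged the libraries of each group per mark and trained 1 ChromHMM model of 8 states. The values used are the deposited state labels of 200 bp bins, as given by the authors, not signals or counts. SD 6m was not analysed here. From the labels, members, stretches and compared sets were counted in Python 3.11.15 with numpy, pandas and scipy, after the counting and TSS assignment were tested on simulated segmentations. The TSS of a gene was the start of its longest curated transcript (26089 genes, RefSeq annotation of GRCm38.p6), and stretches and bins were assigned to the nearest. Sequence features used bins without unassembled bases. Groups were taken from the sample labels and the group named for each segmentation. No test was made. The members and the gene lists were chosen with earlier results of these data known. Named were the 12 longest stretches, the 15 genes and 8 windows with most member bins, up to 4 genes per list and the 3 longest stretches lost with 1 diet only, plus others said to be chosen after their values were seen.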

Additional observations from a re-analysis of the deposited data

Results flagged for a closer look

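Chromosome X was outside the choice of members, and the same change was present there: 2309 bins in 287 stretches were poised at 3 months and quiescent at 12 months with both diets. They were 11.4% of the 20182 state 5 bins of chromosome X (11.01 to 11.9%), within the range of the autosomes (6.98% to 14.1%). The other fates on chromosome X lay outside it: 38.0% of the state 5 bins stayed poised (autosomes 9.20% to 20.2%) and 10.2% turned active (autosomes 29.7% to 47.8%). The longest, of 13.8 kb, lay 4.27 kb from the TSS of Gpr34, a receptor of macrophages and microglia. No control sample gives a background for this count.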

How the results depend on the processing

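No paired analysis was possible because each group has 1 segmentation of merged libraries. The member share, stretch counts and lengths, whole-run share, TSS distances, annotation shares, GC and repeat content and gene count were recomputed with chromosome X added, with stretches 1 bin apart joined, without the first 3 Mb of chromosomes, with longer minimum lengths, without bins within 1 kb of the edge of a state 5 run, with state 7 or 8 at 12 months, and with other TSS sets. Without bins near run edges, the member share was 12.2%, with 3591 stretches, 60.2% of them in introns, near 1792 genes. With stretches of at least 5 bins only, these values were 9.43%, 4549, 57.7% and 2201. The share was 10.3% with at least 2 bins and 10.7% with state 7 or 8 allowed. The median TSS distance was 32519 bp with every curated transcript start and 45674 bp with protein-coding genes only. The main results are the member share, stretch count, whole-run share, median TSS distance, intron share and gene count. Their other 33 values stayed within the Wilson or order-statistic limits, or within 1.5 times for counts. Beyond these, median stretch length was 1400 bp with at least 2 bins, 2200 bp with at least 5 and 1600 bp without run edges. Member bins without run edges numbered 40239. The share within 2 kb of a TSS was 3.69% with at least 5 bins and 3.26% without run edges. With every transcript start it was 4.99%, with protein-coding genes 3.22%, and within 1 kb 1.93%. The whole-run share could not be taken without run edges. The surroundings, run lengths, enhancer distances, motifs and windows were not recomputed. Gene list shares without the 1 or 2 genes with most member bins and by nearest protein-coding TSS, flanks without member bins and TSS states without TSS in member bins were added after seeing the data, and are given beside the results they change. By protein-coding TSS, growth hormone genes had 4.68%, clock genes 5.63%, cell cycle genes 5.67% and stellate cell markers 43.4%. With 1 segmentation per group and unknown depth, no value is tested against the spread between mice.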
